A study of Mus musculus with 8 samples.

Results

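Adipokines are proteins that fat cells and the tissue around them release into the blood. The mRNA levels of 8 adipokine genes (Adipoq, Retn, Cfd, Lep, Rbp4, Nampt, Rarres2 and Apln) were followed in cultures of 3T3-L1, fibroblast-like mouse cells able to become fat cells under an adipogenic hormone mixture. The genes were chosen by name, and all 8 were found among the 31252 genes of the deposited count tables. Control cells held the empty shRNA vector, shMaf1 cells an shRNA that targets Maf1, and shBrf1 cells one that targets Brf1, while the fourth condition was treatment with ML-60218, a small-molecule inhibitor of RNA polymerase III. Maf1 represses this polymerase, and Brf1 is part of the factor that brings it to tRNA genes. Each of the 4 conditions was sampled at day 0, when cells had been confluent for 2 days and no inducer had been added, and at day 2. By day 2 the cells had spent 2 days in dexamethasone at 2 µM, IBMX at 0.5 mM, insulin at 10 µg/mL and ascorbic acid at 25 µg/mL. The labels used here do not state whether an shRNA line is a clone or a pool, nor the dose, start or vehicle of ML-60218, nor whether the ML-60218 cells held the empty vector.

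Adiponectin (Adipoq), resistin (Retn) and adipsin (Cfd) are classed as products of maturing fat cells, and leptin (Lep) as a product of fat cells filled with lipid. Nampt, which also makes a precursor of NAD, chemerin (Rarres2) and apelin (Apln) are made by many cell types as well as by fat cells, and Rbp4, the carrier of retinol in blood, is made mainly by liver and fat. The nuclear receptor Pparg, a master regulator of fat cell formation, is known to act on Adipoq, whereas apelin is known as a gene that low oxygen and insulin raise.

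There were 8 groups with 1 library each, so no difference below has a replicate check, no test across conditions was made, and the 3 comparisons against control on a day share that day's control library. Totals ran from 29035505 to 31759559 counts. The shRNA targets were checked first. Maf1 stood at 13.1 and 11.96 CPM (normalised counts, scaled to library size) in the shMaf1 libraries of day 0 and day 2 and between 54.9 and 61.8 CPM in the other 6, and Brf1 stood at 19.0 and 13.5 CPM in the shBrf1 libraries and between 25.3 and 33.2 CPM in the others. Summed CPM of 8 fat cell markers (Fabp4, Plin1, Cidec, Lipe, Slc2a4, Aqp7, Pparg, Cebpa) lay between 39.2 and 69.2 at day 0 and reached 422 in control, 145 in shMaf1, 1787 in shBrf1 and 1220 with ML-60218 at day 2. The 9 preadipocyte markers summed to 2088 to 3957 CPM in all libraries. Of the other cell types, the endothelial, epithelial, skeletal muscle and hepatocyte lists each summed to at most 2.397 CPM, with Cldn5, Epcam, Myod1, Ckm, Ttr, Fgb and Serpina1a at 0. The 8 macrophage markers summed to 7.54 to 34.2 CPM with Emr1 at 0, and the 6 smooth muscle and myofibroblast markers to between 224 and 661 CPM at day 0, and at day 2 to 52.7 in control, 423 in shMaf1, 27.1 in shBrf1 and 14.4 in ML-60218. In RNA from whole cultures, more cells that express an adipokine and more mRNA per cell cannot be told apart. The shBrf1 and ML-60218 libraries of day 2 stand apart in quality: shBrf1 at day 2 had a 3′ bias score of 0.36 (0 is no bias) and 7.8% ribosomal RNA reads, and ML-60218 at day 2 a score of 0.22, against scores of 0.06 to 0.15 in the other 6 and 0.46% to 0.93% ribosomal RNA in the other 7. The part of these features in the results was not tested.

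The promoters of 4 genes are shown so that their sequences can be read beside the levels: Adipoq, Retn and Cfd, which were near 0 before induction, and Apln, which was highest in the ML-60218 library of day 2. RefSeq's table of promoters (build GRCm38.p6, the build of mm10) held promoters for 7 of the 8 genes, all but Rarres2. Each line runs 5′ to 3′ over 270 bases, in lower case up to the transcript's start, with the first 20 transcribed bases in capitals.
Adipoq, chr16:23146286-23146555, plus strand: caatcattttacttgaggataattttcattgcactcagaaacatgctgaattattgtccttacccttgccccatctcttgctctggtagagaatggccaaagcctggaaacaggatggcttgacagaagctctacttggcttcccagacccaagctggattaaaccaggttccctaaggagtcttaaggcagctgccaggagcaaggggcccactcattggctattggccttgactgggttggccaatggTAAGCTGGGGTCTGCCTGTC
Retn, chr8:3655520-3655789, plus strand: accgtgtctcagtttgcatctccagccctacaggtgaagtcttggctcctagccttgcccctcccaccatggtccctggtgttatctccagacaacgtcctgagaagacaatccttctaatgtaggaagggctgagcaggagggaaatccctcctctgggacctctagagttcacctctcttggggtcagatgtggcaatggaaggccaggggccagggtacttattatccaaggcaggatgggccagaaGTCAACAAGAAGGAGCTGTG
Cfd, chr10:79890603-79890872, plus strand: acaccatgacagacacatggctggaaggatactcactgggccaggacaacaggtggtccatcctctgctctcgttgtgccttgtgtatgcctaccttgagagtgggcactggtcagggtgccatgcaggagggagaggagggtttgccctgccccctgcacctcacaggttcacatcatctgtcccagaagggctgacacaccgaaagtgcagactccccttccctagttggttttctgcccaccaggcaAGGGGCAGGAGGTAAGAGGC
Apln, chrX:48034834-48035103, minus strand: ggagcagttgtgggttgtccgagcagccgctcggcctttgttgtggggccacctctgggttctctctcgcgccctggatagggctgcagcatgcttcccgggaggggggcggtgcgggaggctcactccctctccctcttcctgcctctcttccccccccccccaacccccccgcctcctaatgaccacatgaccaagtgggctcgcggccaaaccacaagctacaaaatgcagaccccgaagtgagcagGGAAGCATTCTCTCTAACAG
In the whole windows of 300 bases (250 before the start, 50 after it), 6 motifs were searched on both strands: AGGTCA, the core site of nuclear receptors, the direct repeat of that core with 1 base between (DR1), of the kind Pparg uses with its partner Rxra and which contains AGGTCA, TTGCNNAA (C/EBP), the palindromic glucocorticoid response element, ACGTG (the core of a hypoxia response element, also held by the E-box CACGTG) and TATAAA. None of the 6 was in the windows of Adipoq, Retn, Cfd or Apln, which says only that these letters are not in them. Nampt held AGGTCA 151 bases before its start and ACGTG at 82 bases before, Lep held TTGCNNAA at 55 bases before, and 1 of the 2 Rbp4 promoters held TTGCNNAA, ACGTG and TATAAA at 128, 189 and 28 bases before. Among 32851 promoters of this table, 16.3% hold AGGTCA, 0.0396% the DR1, 10.8% TTGCNNAA, 0.00913% the glucocorticoid response element, 19.6% ACGTG and 13.6% TATAAA. The guanine and cytosine content of the printed genes' windows was 50% for Adipoq, 54% for Retn, 57.7% for Cfd and 64% for Apln, against a median of 52.7% over all promoters of the table.

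Levels of each gene are given as CPM after scaling all 8 libraries together, with 95% intervals that cover counting error only. Adipoq (chromosome 16, 23146536 to 23157968, mm10), which encodes the insulin-sensitising hormone adiponectin, had 0.779 CPM in control, 0.125 in shMaf1, 1.05 in shBrf1 and 0.479 with ML-60218 at day 0. At day 2 it had 19.7 CPM in control, 10.3 in shMaf1, 145 in shBrf1 and 38.2 in ML-60218. Every day 2 library was thus above every day 0 library, and the 4 day 2 intervals do not overlap: 9.17 to 11.5 in shMaf1, 18.1 to 21.4 in control, 35.8 to 40.6 in ML-60218 and 141 to 150 in shBrf1. At day 0 the intervals of control, shBrf1 and ML-60218 overlap, and the shMaf1 value rests on 4 counts.

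Retn (chromosome 8, 3655770 to 3659818), which encodes resistin, a hormone linked to insulin resistance in mice, had 0.115 CPM (4 counts) in control, 0.0299 (1 count) in ML-60218 and 0 counts in shMaf1 and shBrf1 at day 0. At day 2 it had 1.58 CPM in control, 0.306 in shMaf1, 16.0 in shBrf1 and 10.0 in ML-60218. The order of the day 2 libraries was the same as for Adipoq. Cfd (chromosome 10, 79890853 to 79892656), which encodes adipsin, the serine protease that starts the alternative complement pathway, had 0.519 CPM (18 counts) in control, 0.0602 (2 counts) in shBrf1, 0.0299 (1 count) in ML-60218 and 0 counts in shMaf1 at day 0. At day 2 it had 1.85 CPM in control, 0.204 in shMaf1, 19.6 in shBrf1 and 3.05 in ML-60218. The shMaf1 library at day 2, with 6 counts and an interval of 0.0748 to 0.444 CPM, lay below control at day 2 and overlapped control at day 0 (0.308 to 0.821 CPM).

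Rarres2 (chromosome 6, 48569698 to 48572670), which encodes the chemoattractant chemerin, was measurable in every library, at 3.23 CPM in control, 2.77 in shMaf1, 5.90 in shBrf1 and 2.90 with ML-60218 at day 0, and at 17.9, 7.64, 31.0 and 26.7 CPM in the same order at day 2. Each day 2 library was above each day 0 library, although the shMaf1 library at day 2 (6.68 to 8.71 CPM) and the shBrf1 library at day 0 (5.10 to 6.78 CPM) have overlapping intervals. Its reads may be shared with Lrrc61, an overlapping gene on the other strand at 8.25 to 16.2 CPM, since the kit was stranded but the strand setting of the counting is not given in the sources used here. Nampt (chromosome 12, 32820335 to 32853369), whose protein makes nicotinamide mononucleotide for NAD inside cells and is also secreted as visfatin, was abundant throughout: 99.1 CPM in control, 89.7 in shMaf1, 117 in shBrf1 and 94.5 with ML-60218 at day 0, and 111, 88.7, 262 and 183 CPM in that order at day 2. The shBrf1 and ML-60218 libraries at day 2 stand above the other 6, which span 88.7 to 117 CPM. An overlapping long noncoding RNA on the same strand, Gdap10, had at most 2.08 CPM.

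Apln (chromosome X, 48025146 to 48034852), which encodes the peptide apelin, had 17.0 CPM in control, 19.99 in shMaf1, 19.8 in shBrf1 and 16.2 with ML-60218 at day 0. At day 2 it had 14.5 CPM in control, 11.1 in shMaf1, 13.3 in shBrf1 and 61.2 in ML-60218. The ML-60218 library at day 2 was thus the high one, with an interval of 58.2 to 64.3 CPM, and the other 7 lay between 11.1 and 19.99 CPM. Lep (chromosome 6, 29060221 to 29073876) had 0 counts in all 4 day 0 libraries and 1 count in control, 2 in shMaf1, 1 in shBrf1 and 5 with ML-60218 at day 2, at most 0.191 CPM. Rbp4 (chromosome 19, 38116620 to 38125321) had 0 counts in all 8 libraries, which allows a level of up to 0.0866 to 0.116 CPM, the worth of 3 counts in each library. Leptin mRNA thus rested on at most 5 counts and retinol binding protein mRNA on none, and 6 of the 8 genes reached a mean of 1 CPM over the libraries.

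**Figure D1:**
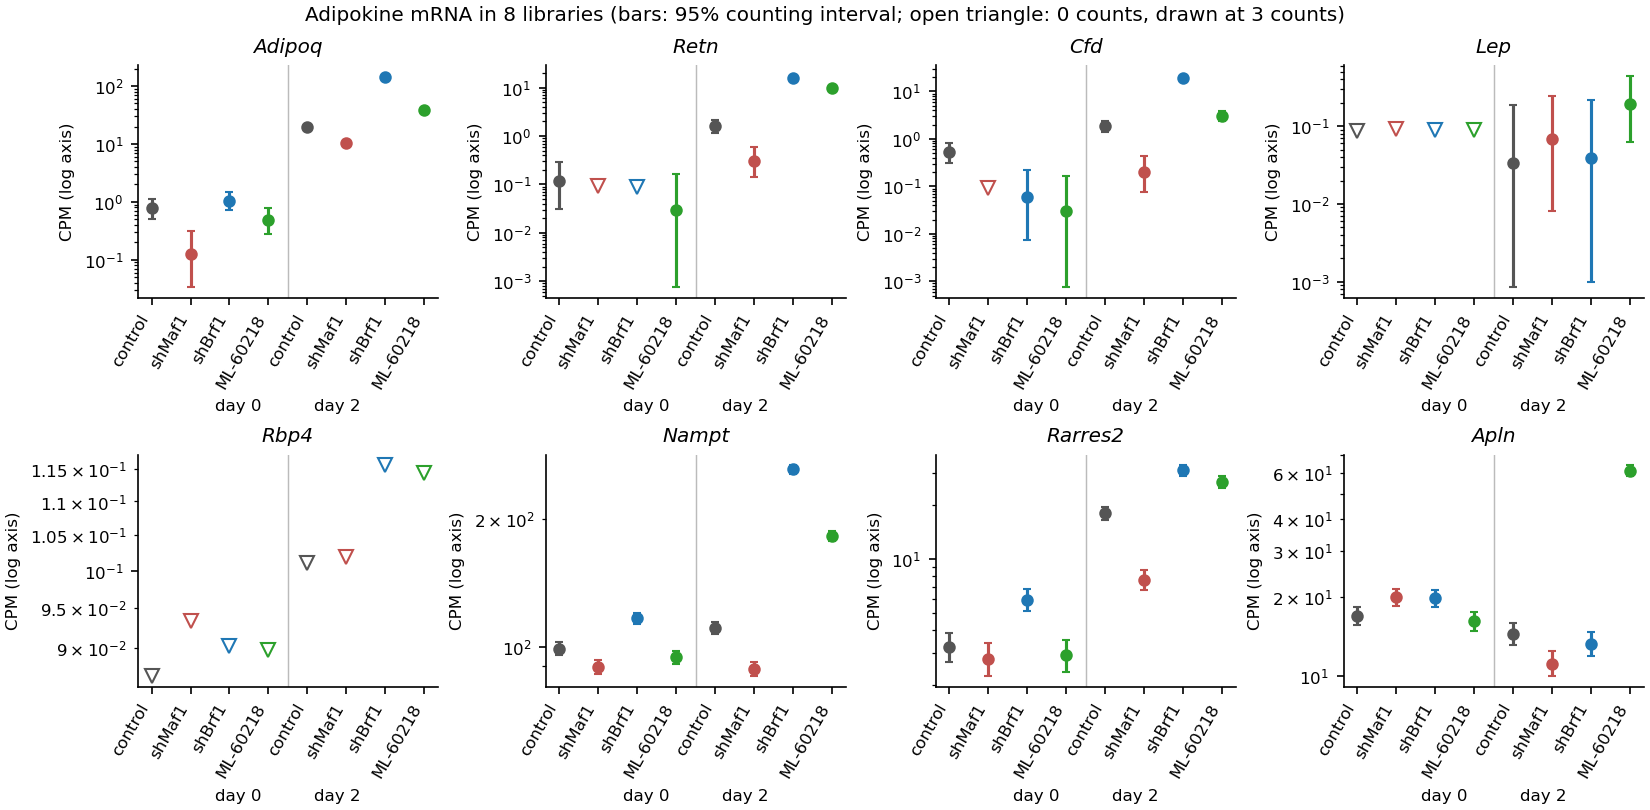
CPM on a log axis of each adipokine gene in the 8 libraries (4 conditions at day 0, left, and day 2, right); points are single libraries, bars 95% counting intervals, and open triangles mark 0 counts, drawn at the level of 3 counts. Adipoq, Retn, Cfd and Rarres2 are highest in the shBrf1 library of day 2, Apln is highest in the ML-60218 library of day 2 (61.2 CPM), and Rbp4 has 0 counts in every library.

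Between genes, levels were compared as CPM per kb of transcript, with lengths from 795 bases (Rarres2) to 4527 bases (Nampt). At day 0 in control, Nampt stood at 21.9 CPM per kb, Apln at 5.39, Rarres2 at 4.07, Adipoq at 0.603, Cfd at 0.563 and Retn at 0.101. At day 2 in control, Nampt (24.5 CPM per kb) and Rarres2 (22.5) were close, followed by Adipoq at 15.2, Apln at 4.59, Cfd at 2.01 and Retn at 1.39. In shBrf1 cells at day 2 the order differed, with Adipoq first at 113 CPM per kb, before Nampt at 57.9, Rarres2 at 39.0, Cfd at 21.2, Retn at 14.0 and Apln at 4.21. In ML-60218 cells Nampt (40.3 CPM per kb), Rarres2 (33.6) and Adipoq (29.5) led, then Apln (19.4), Retn (8.78) and Cfd (3.31). In shMaf1 cells Nampt was at 19.6 CPM per kb, Rarres2 at 9.61, Adipoq at 7.97 and Apln at 3.54, with Retn and Cfd at 0.268 and 0.221. With no replicates, the spread behind any of these orders is unknown.

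**Figure D2:**
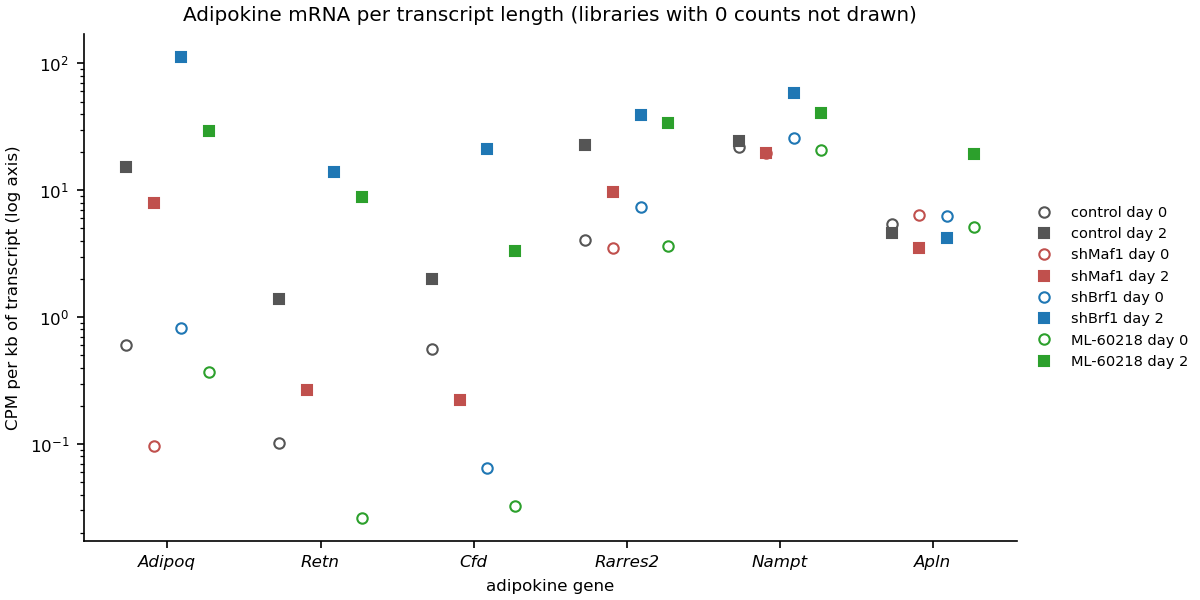
CPM per kb of transcript on a log axis for the 6 measurable adipokine genes; open circles are day 0 libraries, filled squares day 2 libraries, colours the 4 conditions, and libraries with 0 counts are not drawn. Adipoq covers the widest range, up to 113 CPM per kb in shBrf1 cells at day 2, whereas Nampt lies between 19.6 and 57.9 CPM per kb.

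Day 2 was set against day 0 within each condition to ask how far the cocktail moved each adipokine mRNA. By the size rule, a gene is higher or lower if its log2(CPM + 0.5) differs by 1 or more (2-fold with that 0.5 added) between the libraries and it reaches 1 CPM in either. Folds and their intervals leave out the added 0.5 CPM, so for genes with few counts the folds are larger than the log2 ratios give. In control cells 4 of the 8 genes were higher (Adipoq, Retn, Cfd and Rarres2) and 0 lower, where 9.0% of all genes that reach 1 CPM were higher and 9.75% lower. Adipoq was 25.3-fold higher (17.2 to 38.7), Retn 13.7-fold (5.02 to 52.5), Rarres2 5.54-fold (4.51 to 6.86) and Cfd 3.57-fold (2.06 to 6.46). The log2 ratio of Cfd, 1.21, was short of the size rule with spike-in scaling (0.81), with 1 CPM added (0.91) and after removal of a dependence on transcript length (0.86), which leaves 3 genes higher. Under these settings 477, 1036 and 1094 of all genes were higher, in that order, and 3631, 1010 and 1183 lower. Apln was 1.17-fold lower (1.03 to 1.33). Nampt was 1.12-fold higher (1.07 to 1.17), a direction that flips to a log2 ratio of -0.02 with library totals and -0.51 with spike-in scaling. The median log2 ratio was 1.48 over the 6 measurable adipokine genes and 0.04 over all genes.

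In shMaf1 cells 2 of the 8 genes were higher (Adipoq and Rarres2) and 0 lower, where 4.95% of all genes were higher and 5.57% lower. Adipoq was 82.7-fold higher (31.95 to 305, from 4 counts at day 0) and Rarres2 2.76-fold (2.15 to 3.57). Retn was 3.27-fold and Cfd 2.18-fold higher with their 0 counts at day 0 taken as 3. Their intervals start at 2.15-fold and 1.28-fold, and neither gene reached 1 CPM at day 2. Nampt had a log2 ratio of -0.02, which turned to 0.013 after removal of a dependence on transcript length. Apln was 1.79-fold lower (1.57 to 2.06), and with spike-in scaling its log2 ratio of -1.15 passed the size rule.

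In shBrf1 cells 5 of the 8 genes were higher (Adipoq, Retn, Cfd, Nampt and Rarres2) and 0 lower, where 14.7% of all genes were higher and 17.3% lower. Adipoq was 138-fold higher (99.2 to 199), Cfd 325-fold (89.6 to 2694, from 2 counts at day 0) and Rarres2 5.26-fold (4.50 to 6.18). Retn was 177-fold higher with its 0 counts at day 0 taken as 3, and its interval starts at 143-fold. Nampt was 2.25-fold higher (2.16 to 2.34), but its log2 ratio of 1.16 was 0.94 with library totals, short of the size rule, and turned to -0.06 with spike-in scaling. Apln was 1.49-fold lower, past the size rule with spike-in scaling (-1.74). In ML-60218 cells 5 of the 8 genes were also higher (Adipoq, Retn, Cfd, Rarres2 and Apln) and 0 lower, where 12.3% of all genes were higher and 14.5% lower. Adipoq was 79.7-fold higher (48.8 to 140), Rarres2 9.20-fold (7.43 to 11.5) and Apln 3.78-fold (3.43 to 4.18). With spike-in scaling the log2 ratio of Apln, 1.89, was 0.61, which ends its call. Retn, at 334-fold (59.4 to 13247), and Cfd, at 102-fold (17.8 to 4079), each rest on 1 count at day 0. Lep, with 5 counts against 0, was 2.13-fold higher with the 0 taken as 3 counts, its interval starting at 1.17-fold, without reaching 1 CPM. Nampt was 1.93-fold higher (1.85 to 2.02), with a log2 ratio of 0.95 that becomes -0.35 with spike-in scaling. The medians of the log2 ratio over the 6 genes were 0.59 in shMaf1, 3.67 in shBrf1 and 2.87 in ML-60218, beside 0.02, -0.00361 and 0.03 over all genes.

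Spike-in scaling, which assumes an equal amount of spike-in RNA per unit of RNA in each library, moved the median of all genes at day 2 against day 0 by a large step, to -0.61 in control, -0.31 in shMaf1, -1.17 in shBrf1 and -1.22 in ML-60218. The split of all genes was then 477 higher and 3631 lower in control (1119 and 1212 without it), 353 and 1381 in shMaf1 (612 and 689), 389 and 7315 in shBrf1 (1835 and 2158), with 328 and 7788 in ML-60218 (1526 and 1795). Library totals moved the same medians to between -0.24 and -0.09.

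**Figure D3:**
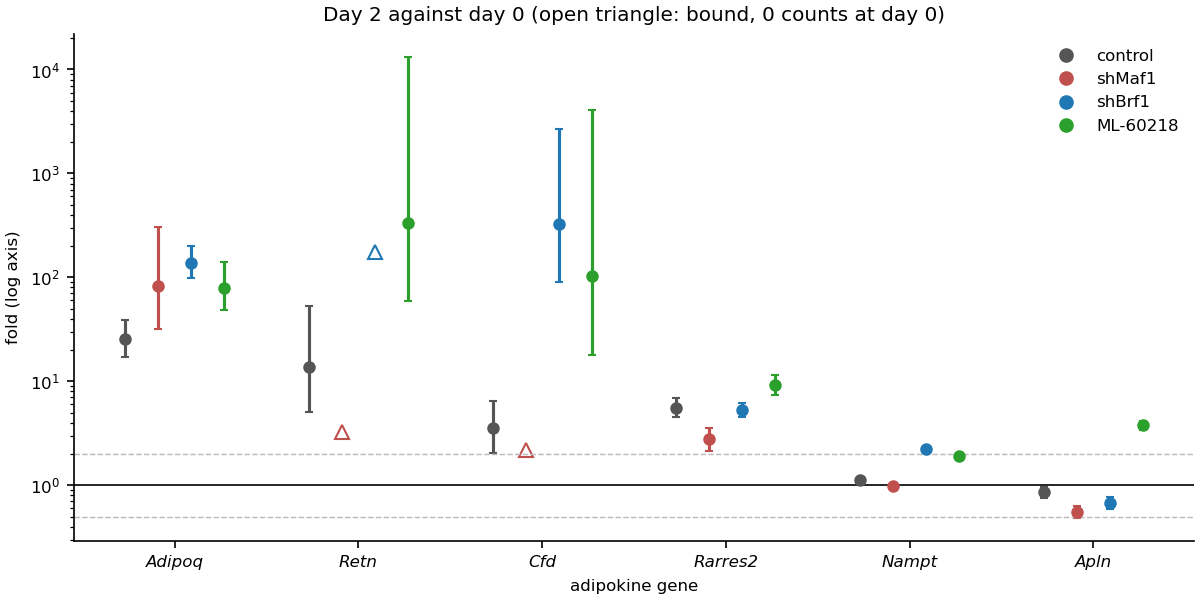
Fold of day 2 over day 0 on a log axis for 6 adipokine genes in the 4 conditions. Bars are 95% counting intervals, the solid line no difference and the dashed lines 2-fold. Open triangles mark 0 counts at day 0, drawn with 3 counts in their place. Apln lies above the dashed line in ML-60218 cells (3.78-fold) and below the solid line in the other 3 conditions.

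The day 2 against day 0 log2 ratio of each condition was then set against that of control. The 3 differences share the control pair. For Apln the difference was 2.11 in ML-60218, -0.59 in shMaf1 and -0.34 in shBrf1, with counting intervals of 1.92 to 2.38, -0.88 to -0.35 and -0.61 to -0.09 computed without the added 0.5 CPM. For Nampt it was 1.00 in shBrf1 and 0.78 in ML-60218, and -0.18 in shMaf1, the last turning to 0.16 with spike-in scaling. For Rarres2 it was -0.99 in shMaf1 (-1.47 to -0.55) and 0.70 in ML-60218 (0.31 to 1.16). In shBrf1 the Rarres2 difference was -0.00098, with an interval of -0.44 to 0.30 that holds 0. For Adipoq it was 2.57 in shBrf1 and 1.32 in ML-60218. In shMaf1 it was 0.13, a value without a settled sign because of the 4 counts at day 0: it was -0.21 with 1 CPM added and 1.71 with none added (0.18 to 3.24). For Retn and Cfd the differences were -1.07 and -0.71 in shMaf1, 3.28 and 3.96 in shBrf1, with 2.55 and 1.54 in ML-60218, all of which depend on the added 0.5 CPM because day 0 counts were between 0 and 18. With spike-in scaling the differences for Rarres2 were -0.66 in shMaf1, -0.57 in shBrf1 and 0.096 with ML-60218, and those for Nampt were 0.45 in shBrf1 and 0.16 with ML-60218. The same scaling gave differences of 1.49 for Apln and 0.78 for Adipoq with ML-60218, and of 1.95 for Adipoq in shBrf1. The median difference over the 6 genes was -0.65 in shMaf1, 1.79 in shBrf1 and 1.43 with ML-60218.

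At day 0, 0 of the 8 adipokine genes passed the size rule in any of the 3 comparisons against control. The share of all genes that did was 2.60% higher and 1.02% lower in shMaf1, 0.489% and 0.497% in shBrf1, with 0.0410% and 0.0738% in ML-60218, so few or no members would be counted at the background rate. Adipoq was 6.26-fold lower in shMaf1 (2.18 to 24.6) with 4 against 27 counts, a log2 ratio of -1.03 that stays out of the count because no library reached 1 CPM there. Cfd was 8.63-fold lower in shBrf1 (2.07 to 76.7) and 17.4-fold lower in ML-60218 (2.74 to 723). With 0.5 CPM added, its log2 ratios there were -0.86 and -0.94, short of the size rule. In shMaf1 its 0 counts, taken as 3, put it 5.56-fold lower, with an interval that starts at 4.07-fold. Its log2 ratio in shMaf1 was -1.03, and neither library reached 1 CPM. The 3 Cfd values share the 18 counts of the control library. Rarres2 was 1.82-fold higher in shBrf1 (1.44 to 2.32), and Nampt 1.18-fold higher in shBrf1 (1.12 to 1.23) and 1.10-fold lower in shMaf1 (1.05 to 1.16). Apln was 1.18-fold higher in shMaf1 (1.05 to 1.32) and 1.17-fold higher in shBrf1 (1.04 to 1.31).

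At day 2 the perturbed cells were set against control to see how knockdown of Maf1 or Brf1 or the polymerase inhibitor altered adipokine mRNA during early differentiation. In shMaf1 cells 3 of the 8 genes were lower (Retn, Cfd and Rarres2) and 0 higher, where 3.48% of all genes were lower and 4.57% higher. Cfd was 9.10-fold lower (3.92 to 25.9), Retn 5.18-fold (2.51 to 12.03) and Rarres2 2.34-fold (2.00 to 2.75). The log2 ratio of Retn, -1.37, was -0.985 with 1 CPM added, just short of the size rule. Adipoq, 1.91-fold lower (1.66 to 2.21), was just outside the size rule, and Apln was 1.30-fold (1.12 to 1.504) and Nampt 1.25-fold lower (1.19 to 1.32). All 6 measurable adipokine genes thus had the lower value in shMaf1 cells.

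In shBrf1 cells at day 2, 4 of the 8 genes were higher than in control (Adipoq, Retn, Cfd and Nampt) and 0 lower, where 3.11% of all genes were higher and 5.50% lower. Cfd was 10.6-fold higher (7.98 to 14.2), Retn 10.1-fold (7.45 to 14.0), Adipoq 7.39-fold (6.77 to 8.07) and Nampt 2.36-fold (2.27 to 2.46). Spike-in scaling took the log2 ratio of Nampt from 1.24 to 0.55, which leaves 3 genes higher. Rarres2 was 1.73-fold higher (1.55 to 1.94), with a log2 ratio of 0.78 that becomes 0.11 under that scaling, and the interval of Apln, 0.793 to 1.06 times control, holds 1. This library had the 3′ bias score of 0.36 given above. After removal of a dependence on transcript length, the log2 ratios of these genes were 2.62 for Adipoq (2.85 with it), 2.72 for Retn (2.98), 2.80 for Cfd (3.09), 1.35 for Nampt (1.24), and 0.68 for Rarres2 (0.78).

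In ML-60218 cells at day 2, 2 of the 8 genes were higher than in control (Retn and Apln) and 0 lower, where 1.77% of all genes were higher and 3.11% lower. Retn was 6.31-fold higher (4.61 to 8.80) and Apln 4.23-fold (3.80 to 4.72). Adipoq, at 1.94-fold (1.75 to 2.15), was just outside the size rule, with Cfd at 1.65-fold (1.15 to 2.36) and Nampt at 1.65-fold (1.57 to 1.72). Rarres2 was 1.49-fold higher (1.33 to 1.67), a direction that flips with spike-in scaling, where its log2 ratio of 0.56 becomes -0.03. The same scaling took Adipoq from 0.94 to 0.34, Cfd from 0.59 to 0.08 and Nampt from 0.72 to 0.11, while Retn (1.74) and Apln (1.44) stayed past the size rule. Medians of the log2 ratio over the 6 genes against control at day 2 were -1.04 in shMaf1, 2.05 in shBrf1 and 0.83 in ML-60218, beside -0.00137, 0.01 and 0.01 over all genes. With spike-in scaling the medians over the 6 genes were -0.89, 1.36 and 0.22. It moved the median of all genes to 0.15, -0.65 and -0.58, and the split of all genes to 726 higher and 294 lower in shMaf1 (559 and 426 without it), 94 and 3041 in shBrf1 (377 and 667), with 64 and 1516 in ML-60218 (214 and 375). In the authors' deposited table, the log2 fold change of Adipoq was -0.94 in shMaf1, 2.90 in shBrf1 and 0.96 in ML-60218, and that of Apln was -0.38, -0.11 and 2.08. For Retn and Cfd the authors' values lay further from the ratios here, at -2.34 and -3.13 in shMaf1 (-1.37 and -1.74 here). They were 3.34 and 3.41 in shBrf1 (2.98 and 3.09 here), and 2.65 and 0.72 in ML-60218 (2.33 and 0.59 here).

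**Figure D4:**
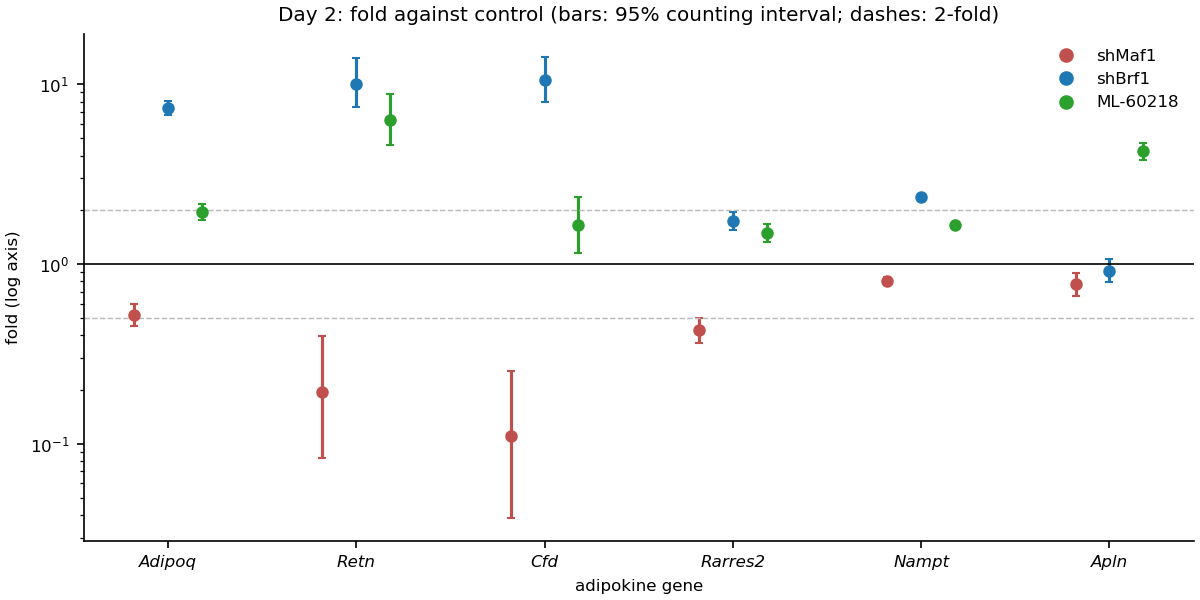
Fold of each perturbed library over control at day 2 on a log axis for 6 adipokine genes; bars are 95% counting intervals, the solid line no difference and the dashed lines 2-fold. The shMaf1 points lie below 1 for all 6 genes, shBrf1 lies highest for Adipoq, Retn, Cfd, Rarres2 and Nampt, and ML-60218 lies highest for Apln (4.23-fold).

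The perturbed libraries of day 2 were also compared with each other, which does not use the control library. In shMaf1 against shBrf1, 5 of the 8 genes were lower (all measurable genes but Apln) and 0 higher, where 9.28% of all genes were lower and 12.4% higher. The fold ranged from 2.96-fold lower for Nampt (2.83 to 3.09) to 96.1-fold lower for Cfd (43.8 to 263), with Adipoq 14.1-fold lower (12.6 to 15.9). Apln had a log2 ratio of -0.24, which spike-in scaling turns to 0.56, and Nampt went from -1.56 to -0.72 with it, which leaves 4 genes lower. Of all genes, that scaling gave 4885 higher and 306 lower (1527 and 1142 without it). In shMaf1 against ML-60218, 6 of the 8 genes were lower and 0 higher, where 6.36% of all genes were lower and 9.24% higher. Retn was 32.7-fold lower (17.0 to 72.3), Apln 5.49-fold (4.87 to 6.20), Adipoq 3.71-fold (3.26 to 4.23) and Nampt 2.06-fold (1.963 to 2.161). With spike-in scaling 4 genes were lower, since Nampt (-0.27) and Rarres2 (-0.99) were then short of the size rule, and with library totals Nampt was short of it too (-0.91). In shBrf1 against ML-60218, 2 of the 8 genes were higher (Cfd, 6.42-fold, 5.06 to 8.23, and Adipoq, 3.81-fold, 3.56 to 4.09) and 1 was lower (Apln, 4.62-fold, 4.11 to 5.20), where 1.88% of all genes were higher and 2.34% lower. Between these libraries Retn was 1.60-fold (1.37 to 1.88), Nampt 1.44-fold (1.38 to 1.49) and Rarres2 1.16-fold (1.05 to 1.29) higher in shBrf1. The medians over the 6 genes were -2.86, -2.09 and 0.59.

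Of 15 receptors and binding partners of the adipokines, 5 reached a mean of 1 CPM. Adipor2, a receptor of adiponectin, was at 76.9 CPM in control, 70.4 in shMaf1, 79.8 in shBrf1 and 92.2 with ML-60218 at day 0, and at 286, 149, 567 and 575 CPM in that order at day 2. It was 3.71-fold higher at day 2 in control (3.55 to 3.88), and 2.01-fold higher in ML-60218 than in control at day 2 (1.9603 to 2.068), with shBrf1 at 1.99-fold (1.93 to 2.04), just under the size rule. Adipor1, the other adiponectin receptor, stayed between 113 and 143 CPM in all 8 libraries. T-cadherin (Cdh13), which binds adiponectin multimers, was lower in shBrf1 than in control at day 2, at 21.05 CPM beside 58.4 CPM. Cap1, reported as a resistin receptor in human cells, was at 137 to 274 CPM, and Tlr4, also reported as one, was 18.3 CPM at day 0 and 8.63 CPM at day 2 in control. The receptors of leptin (Lepr, at most 2.00 CPM), apelin (Aplnr, at most 0.617) and chemerin (Cmklr1, at most 3.13, in shMaf1 at day 2; Gpr1, at most 0.0674; Ccrl2, at most 0.462) were near or below 1 CPM on average. The retinol binding protein receptor Stra6 had at most 0.115 CPM. By list, 1 receptor was higher and 1 lower at day 2 in control, 0 passed in shMaf1 against control at day 2, 0 were higher and 1 lower in shBrf1, and 1 was higher and 0 lower in ML-60218, against the shares of all genes given above. The call of Adipor2 in ML-60218 ended with library totals and with spike-in scaling, where 0 receptors were higher. Library totals gave 167 higher and 450 lower of all genes there, and spike-in scaling 64 and 1516.

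Genes that act on the adipokine proteins were counted by the same rule. Of all genes that reach 1 CPM, 9.0% were higher and 9.75% lower at day 2 in control. Against control at day 2 these shares were 4.57% and 3.48% in shMaf1, 3.11% and 5.50% in shBrf1, with 1.77% and 3.11% in ML-60218. Of 9 genes for folding and secretion of adiponectin, 0 were higher and 1 lower at day 2 in control, the endoplasmic reticulum oxidase Ero1l, at 230 CPM at day 0 and 88.4 at day 2. Against control at day 2, 0 passed in shMaf1 or shBrf1, and in ML-60218 Ero1l was 4.33-fold higher (4.14 to 4.52), at 383 CPM. Of 6 measurable genes for processing apelin and chemerin, 0 were higher and 3 lower at day 2 in control: the plasminogen activators Plau and Plat and the protease Ctsk, which had 52.8 CPM at day 0 and 16.5 at day 2. Furin, a protease that cleaves many prohormones, had 41.8 CPM in shMaf1 and 128 CPM in control at day 2, 3.06-fold lower, and was the 1 gene of this list past the rule there. Furin was lower by the rule at day 0 too, at 30.1 CPM in shMaf1 and 72.2 CPM in control. Plat was lower in shBrf1 (8.83 CPM) and, with Plau, in ML-60218 (12.4 and 0.343 CPM) than in control (41.1 and 2.73 CPM). Spike-in scaling gave this list 5 lower genes in shBrf1 and 3 with ML-60218, and 1 higher and 1 lower in shMaf1. Of all genes, it gave 94 higher and 3041 lower in shBrf1, 64 and 1516 with ML-60218, and 726 and 294 in shMaf1. Without it, 12130, 12073 and 12233 genes reach 1 CPM in these comparisons.

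Of the 7 measurable genes of the complement alternative pathway, in which Cfd acts, 3 were higher and 0 lower at day 2 in control. Of all genes that reach 1 CPM, 9.0% were higher and 9.75% lower there. C3, the central component, was 11.5-fold higher (11.3 to 11.8) at 3359 CPM, and the membrane inhibitor Cd55 had 5.57 CPM at day 0 and 12.2 at day 2. Against control at day 2, the shMaf1 library had 1 gene higher (Masp1, 2.22-fold, 2.11 to 2.34) and 0 lower, the shBrf1 library 0 higher and 3 lower (Masp1 and Cfb among them), and the ML-60218 library 0 higher and 2 lower (Cfb and Masp1). The shares of all genes were 4.57% higher and 3.48% lower in shMaf1, 3.11% and 5.50% in shBrf1, with 1.77% and 3.11% in ML-60218. Cfb, the substrate of Cfd, was at 4.72 CPM in control, 5.16 in shMaf1, 1.70 in shBrf1 and 1.22 with ML-60218 at day 2. Cfd thus stood at 19.6 CPM in the library in which Cfb stood at 1.70 CPM.

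Of 16 measurable genes that make or use NAD beside Nampt, 0 passed the rule in control at day 2 against day 0, and 0 in each of the 3 comparisons against control at day 2. Of all genes that reach 1 CPM, 9.0% were higher and 9.75% lower in control at day 2 against day 0. Against control at day 2 these shares were 4.57% and 3.48% in shMaf1, 3.11% and 5.50% in shBrf1, with 1.77% and 3.11% in ML-60218. Of the 8 measurable genes of retinol and retinoic acid handling, listed because Rbp4 carries retinol, 1 was higher and 1 lower (Dhrs9) at day 2 in control. Against control at day 2, 1 gene was higher and 0 lower in shMaf1, in shBrf1 1 was higher (Dhrs3) and 2 lower (Cyp26b1 among them), and in ML-60218 0 were higher and 1 lower (Cyp26b1). Of the 4 measurable C1q and TNF related relatives of Adipoq, 0 were higher and 1 lower in each of these comparisons. In control the lower one was C1qtnf5, at 12.8 CPM at day 0 and 3.30 CPM at day 2. In shMaf1 it was C1qtnf5 as well, at 1.16 CPM against 3.30 CPM in control at day 2. In shBrf1 (1.70 CPM) and ML-60218 (2.71 CPM) it was C1qtnf1, against 7.12 CPM in control at day 2. At day 2 against day 0 in control, spike-in scaling gave 0 higher and 5 lower of the 16 NAD genes (0 and 1 with library totals), 0 and 3 of the 8 retinoid genes, and 2 and 1 of the 7 complement genes. Of all genes, spike-in scaling gave 477 higher and 3631 lower there, and library totals 830 and 1632 (12431 genes reach 1 CPM without spike-in scaling). Under spike-in scaling, 4 of the 16 NAD genes, 5 of the 8 retinoid genes and 4 of the 7 complement genes were lower in the shBrf1 library of day 2 than in control, and 1, 3 and 3 of them in the ML-60218 library, with 0 higher. Of all genes, 3041 were then lower in shBrf1 and 1516 in ML-60218 (12130 and 12073 genes reach 1 CPM without that scaling).

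The transcription factors and lipid genes of fat cells were counted for comparison. Of all genes that reach 1 CPM, 9.0% were higher and 9.75% lower at day 2 in control. Against control at day 2 these shares were 4.57% and 3.48% in shMaf1, 3.11% and 5.50% in shBrf1, with 1.77% and 3.11% in ML-60218. Of 21 measurable factors, 10 were higher and 4 lower at day 2 in control, led by Klf5 (12.9-fold, 8.99 to 19.0), Cebpd (9.23-fold, 8.17 to 10.45) and Cebpa (6.91-fold, 6.11 to 7.83). Against control at day 2, 2 were higher and 5 lower in shMaf1, 4 higher and 0 lower in shBrf1, among them Pparg at 2.56-fold (2.45 to 2.68), and 2 higher and 0 lower in ML-60218, with Pparg at 1.25-fold (1.19 to 1.32), a log2 ratio of 0.32 that turns to -0.28 under spike-in scaling. That scaling gives this list 7 higher and 5 lower at day 2 in control, then 2 higher and 1 lower in shMaf1, 0 and 6 in shBrf1, and 1 and 3 with ML-60218. Of all genes, it gives 477 higher and 3631 lower at day 2 in control, then 726 and 294, 94 and 3041, and 64 and 1516 in the same order. Without it, 12431, 12233, 12130 and 12073 genes reach 1 CPM in these 4 comparisons. Of 18 measurable lipid genes, 15 were higher and 0 lower at day 2 in control. Against control at day 2, 0 were higher and 12 lower in shMaf1, 14 higher and 0 lower in shBrf1, and 12 higher and 0 lower in ML-60218. Spike-in scaling gave 12 higher and 0 lower at day 2 in control. In the comparisons with control it left 11 lower in shMaf1, 10 higher with 1 lower in shBrf1, and 6 higher with ML-60218. The median log2 ratios of the lipid list were -1.42, 1.85 and 1.27, or -1.28, 1.18 and 0.66 under spike-in scaling. Fabp4, the fatty acid carrier of fat cells, was 10.1-fold lower in shMaf1, 9.48-fold higher in shBrf1 (9.09 to 9.90) and 6.73-fold higher in ML-60218 (6.45 to 7.03).

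For each measurable adipokine gene, the 3 genes with the most similar pattern were taken from 9897 genes whose mean was 5 CPM or above, by the root mean square difference of centred log2(CPM + 0.5) over the 8 libraries, which share their depth and scaling. The smallest differences were those of Nampt, to Dolk (0.09), Trmt10c (0.10) and Pnpla8 (0.10), and of Apln, to Pdk1 (0.13), P4ha2 (0.23) and Egln1 (0.30). Pdk1, for example, had 63.9, 61.2, 62.0 and 63.2 CPM in control, shMaf1, shBrf1 and ML-60218 at day 0, and 46.3, 41.8, 42.3 and 188 CPM at day 2. Rarres2 was nearest to Tspan18 (0.23), Rhob (0.24) and Hist1h1c (0.28), and Retn to Fabp5 (0.30), Dgat2 (0.41) and Acsl1 (0.44). Adipoq lay further from its nearest genes, Plin1 (0.58), Rgcc (0.58) and Mrap (0.59), as did Cfd from Acadm (0.62), Car5b (0.66) and Agpat9 (0.66). Their own patterns had root mean squares of 2.70 (Adipoq), 1.93 (Retn), 1.74 (Cfd), 1.27 (Rarres2), 0.69 (Apln) and 0.52 (Nampt), against which these distances are to be read. Among the adipokine genes themselves, Retn and Cfd were the closest pair (0.63) and Adipoq and Apln the farthest (2.72).

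**Figure D5:**
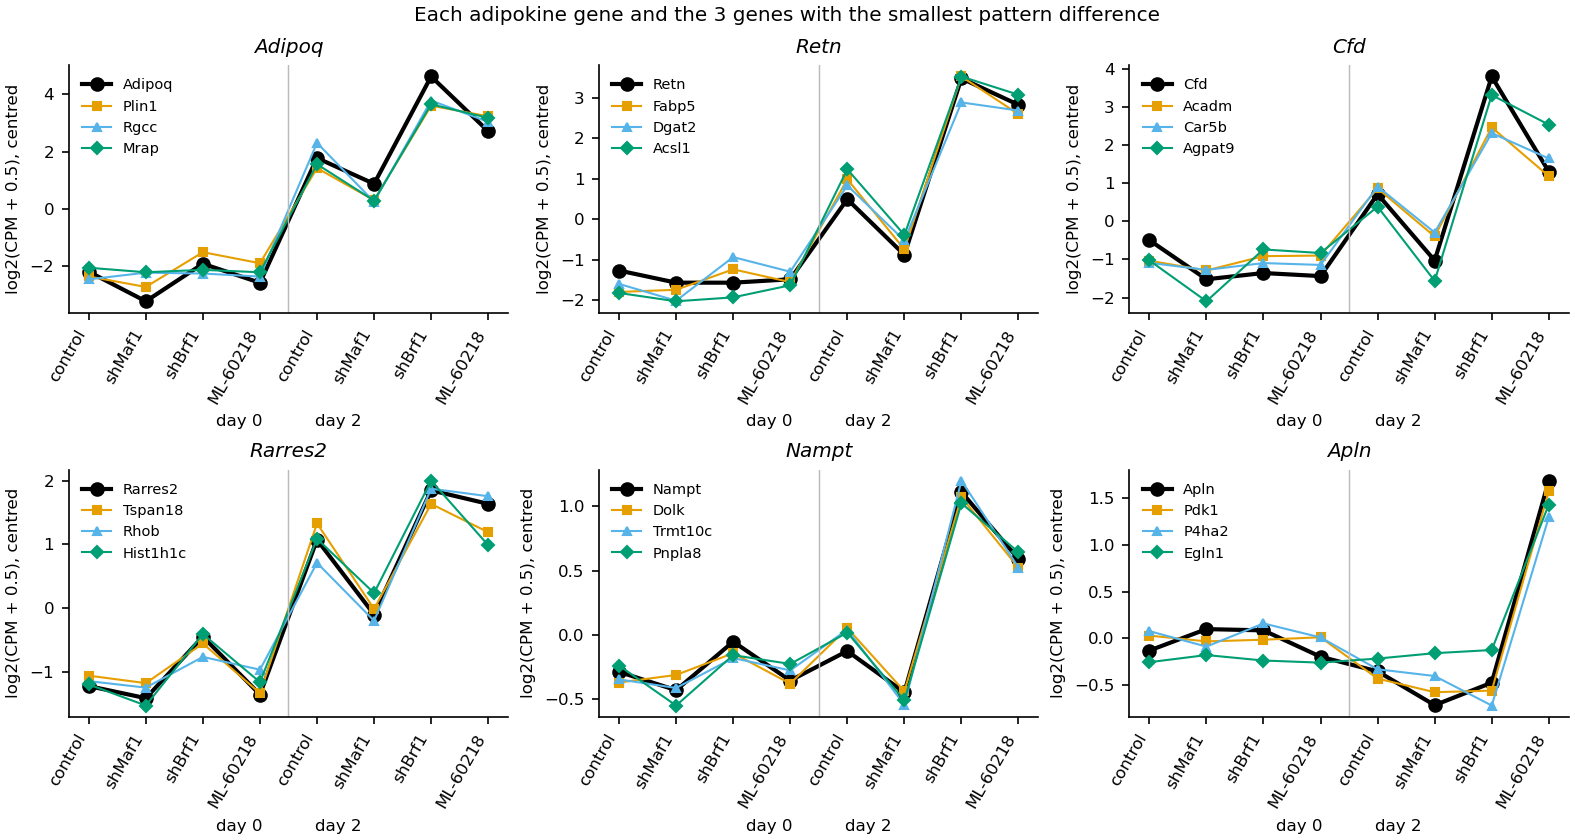
Centred log2(CPM + 0.5) of each adipokine gene (black) and the 3 genes with the smallest root mean square difference from it (coloured), over the 4 conditions at day 0 and day 2; each point is 1 library. The panel of Apln shows Pdk1, P4ha2 and Egln1 high in the ML-60218 library of day 2, and the panel of Adipoq shows its shBrf1 value above those of Plin1, Rgcc and Mrap.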

How the data were processed

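Poly(A) RNA libraries of 8 groups, 1 each, were made with a stranded kit per the labels' protocols and aligned with STAR 2.4 to mm10 per the submitters' processing notes; the counting tool is not given in the sources used here. The 6 deposited comparison tables hold the authors' expected counts (estimated counts) per gene, rounded to whole numbers, for 1 perturbed library and the control of its day, and the authors' log2 fold change. Deposited quality tables give a 3′ bias score, the percent of reads on ribosomal RNA and, per the file headers, the count of reads on ERCC spike-in RNA. Gene positions are the deposited tables', counted from 1.

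Counts were scaled over all 8 libraries with TMM (edgeR 4.0.16, R 4.3.3) and given as CPM; log2 ratios used a pseudocount of 0.5. A gene counted as higher or lower at a log2 ratio of at least 1 in size with the higher value at 1 CPM or more. Folds used no pseudocount. With 1 library per group no test across conditions was made. Fold intervals are exact conditional binomial (Clopper-Pearson, 95%) and, as reads carry no molecular identifiers, cover counting error only, as does the floor of 3 counts per library used for 0 counts. Totals ran from 29035505 to 31759559 counts, and a level of 0 counts allows up to 0.0866 to 0.116 CPM. Transcript lengths came from GENCODE matched by RefSeq accession. Other steps used scipy 1.17.1, statsmodels 0.14.6, pandas 2.3.3, numpy 2.4.6 and matplotlib 3.10.9 in Python 3.11.15, and the ratio and interval code was tested on simulated data. 

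The genes and the 11 other lists were chosen with earlier results of these data known. All 8 adipokine genes are named in each comparison where they have a value. From each list, up to 3 genes past the size rule with the largest ratio were to be named, receptors with their level, and the 3 genes most like each adipokine gene; predicted genes were left out, and a few genes are not reported here. Some values outside this rule, such as those of Lcn2 in shBrf1, were chosen after they were seen. Other settings tried were size factors of DESeq2 1.42.0, scaling by spike-in reads or by totals alone, a pseudocount of 0.1 or 1, a floor of 5 CPM or none, and the authors' log2 fold change; TMM without the shBrf1 library of day 2 and removal of a trend on transcript length (lowess, fraction 0.3) were added after the data were seen.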

Additional observations from a re-analysis of the deposited data

Results flagged for a closer look

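Ratios against control were paired between the days, and the day 2 against day 0 ratio of control with that of each other condition. In 4 pairs the signs were opposite and both counting intervals left out a fold of 1. Other pairs with opposite signs, in which an interval holds 1, are not listed. Each pair rests on 1 library per group, and the difference itself was not tested. Cfd in shBrf1 against control had a log2 ratio of -0.86 at day 0 and 3.09 at day 2. In ML-60218 against control Cfd had -0.94 at day 0 and 0.59 at day 2. Both day 0 values share the 18 counts of the control library, against 2 counts in shBrf1 and 1 in ML-60218. Apln in shMaf1 against control had 0.23 at day 0 and -0.36 at day 2. Apln at day 2 against day 0 had -0.22 in control and 1.89 in ML-60218.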

How the results depend on the processing

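Counts of adipokine genes were taken as moved when they changed by over 1.5 times or left 0, and medians when they changed by more than the counting error of a typical gene, so a change from 4 genes to 3, as in some counts given above, is not among the 8 moved values that follow. With spike-in scaling, 1 adipokine gene was lower at day 2 than at day 0 in shMaf1 and 1 in shBrf1 (Apln in both), 1 was lower in shMaf1 than in control at day 0 (Adipoq), and the median difference of the day response was -0.28 in shMaf1 and 1.20 in shBrf1. Of all genes, that scaling gave 1381, 7315 and 273 lower in these comparisons, in the same order. Without a floor, 2 were lower in shMaf1 at day 0 (Adipoq and Cfd), where 339 of all genes were higher and 134 lower. With a floor of 5 CPM, 2 were higher at day 2 in control (Adipoq and Rarres2) and 1 was lower in shMaf1 than in control at day 2 (Rarres2). That floor gave 952 higher and 852 lower of all genes at day 2 in control, and 388 and 316 in shMaf1 against control. Among day responses and ratios past the size rule, 5 values turned sign, and ratios short of the rule that did so are given above. The Rarres2 day response in shBrf1 against control was 0.033 with DESeq2 size factors and 0.056 with a pseudocount of 1, that of Nampt in shMaf1 was 0.16 with spike-in scaling, that of Adipoq in shMaf1 was -0.21 with a pseudocount of 1, and Nampt at day 2 against day 0 in shBrf1 was -0.060 with spike-in scaling. No paired analysis was possible because each group holds 1 library, so groups compared share at most 1 replicate number (an average day response over the 4 conditions was not fitted), and for the same reason no library could be left out within a group. Day 0 values of Adipoq, Retn and Cfd rest on 0 to 35 counts, so their folds at day 2 are known only within wide intervals, Rbp4 gives no fold and Lep at most a bound.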

Other observations

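Other secreted proteins of adipose tissue were counted by the same rule. Of all genes that reach 1 CPM, 9.0% were higher and 9.75% lower at day 2 in control. Against control at day 2 these shares were 4.57% and 3.48% in shMaf1, 3.11% and 5.50% in shBrf1, with 1.77% and 3.11% in ML-60218. Of 29 measurable genes, 8 were higher and 4 lower at day 2 in control (8 and 8 with library totals, 7 and 13 with spike-in scaling), led by the acute phase proteins Hp (haptoglobin), at 0.346 CPM at day 0 and 179 at day 2, Lcn2 (lipocalin), at 0.462 and 166 CPM, and Saa3, at 0.144 and 16.9 CPM. Against control at day 2, 3 were higher and 8 lower in shMaf1, with Hp 12.2-fold and Lcn2 6.31-fold lower. In shBrf1 1 was higher and 4 lower, and in ML-60218 3 were higher and 3 lower. Saa3, at 16.9 CPM in control at day 2, was lower by the rule in shMaf1 (0.476 CPM) and in shBrf1 (6.94 CPM). Spike-in scaling gave shMaf1 3 higher and 7 lower genes, shBrf1 0 and 8, ML-60218 1 and 9. Of all genes, it gave 726 higher and 294 lower in shMaf1, 94 and 3041 in shBrf1, with 64 and 1516 in ML-60218. At day 2 in control it gave 477 and 3631 of all genes, and library totals 830 and 1632. Without it, 12233, 12130, 12073 and 12431 genes reach 1 CPM in these 4 comparisons. In shBrf1 cells at day 2 Lcn2 stood at 167 CPM beside 166 in control, and Agt, angiotensinogen, was 2.27-fold higher (2.19 to 2.36). In ML-60218 cells Agt was 2.42-fold higher (2.33 to 2.51), and the chemokine Ccl2 was at 6.64 CPM against 38.8 in control.

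Among the resistin relatives, Retnla had 0 counts in all 4 day 0 libraries and 0.776 CPM in control, 1.83 in shMaf1, 1.43 in shBrf1 and 3.32 with ML-60218 at day 2. Its shMaf1 value was thus above that of control, where Retn was 5.18-fold lower in shMaf1. Retnlb and Retnlg had 0 counts in every library.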
